A study of Mus musculus with 6 samples.

Results

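Ccr7-positive CD4 T cells of the mouse kidney were selected from the libraries of sorted CD4+ T cells by their transcripts. A barcode, the tag that marks 1 droplet, was a member when it had at least 500 detected genes, at most 20% of its unique molecular identifiers (UMIs, counted transcript molecules) in mitochondrial genes, at least 1 UMI summed over Cd3d, Cd3e and Cd3g, at least 1 UMI of Ccr7 and no UMI of Foxp3. This rule kept 719 of 9518 Cd3 barcodes in the control group and 2085 of 10301 in the IR group, which made 2804 members among the 54039 barcodes of all 6 libraries. The remaining 8799 and 8216 Cd3 barcodes of the same 2 libraries, called the other Cd3 barcodes, were the comparison.

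The cells came from male wild-type C57BL/6J mice aged 7 to 8 weeks. In the IR group both renal pedicles had been clamped for 30 min before reperfusion, with serum creatinine measured at 24 h, whereas kidneys of the control group were normal. CD45+ cells with an αβ T cell receptor had been sorted by CD4 and CD8, and those with neither are called DN. Each of the 6 groups was 1 library, so no difference has a replicate check, no test was possible, and intervals cover counting error only. None of the sources used here states how many mice were behind a library.

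Naive T cells recirculate between blood and lymph nodes. The chemokine receptor CCR7 lets them enter a node, the lipid receptor S1PR1 lets them leave, and the transcription factors KLF2, FOXO1, TCF-1 (Tcf7) and LEF1 maintain this programme. Effector and tissue-resident T cells lose most of it and gain CD44, chemokine receptors such as CXCR6 and CXCR3, and cytokines, while central memory cells keep CCR7 and the IL-7 receptor, so these transcripts alone do not separate naive from central memory cells.

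The CD4 libraries differed in depth, with 75191397 UMIs in control and 29129274 in IR. Members held a median of 8277 UMIs in control and 2801 in IR, and the other Cd3 barcodes 7180 and 2348. The file headers named Cell Ranger 5.0.1 for control and 6.0.1 for IR, so condition, software version and any batch cannot be told apart. Levels are given as CPM, the UMIs of a gene summed over a set of barcodes and scaled to a common total, without mitochondrial, ribosomal protein and Malat1 features. Of the members, 6 in control and 5 in IR had a barcode sequence that also occurred in another library of the same condition, and leaving out all such barcodes ended no call of a named gene.

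The markers set beside Ccr7 for the label of naive-like cells were Igfbp4 and St8sia6. Igfbp4 encodes a binding protein of insulin-like growth factors, and St8sia6 a sialyltransferase. Ccr7 itself chose the cells and is no finding. Igfbp4 was at 321 CPM (95% Poisson interval 305 to 337, 1542 UMIs in 372 barcodes) in control members and 8.27 CPM in the other control barcodes, and at 691 CPM (663 to 719) in IR members against 96.5 CPM. St8sia6 was at 291 CPM (276 to 306) against 12.6 CPM in control, and at 70.8 CPM (62.2 to 80.3) against 15.9 CPM in IR. Both genes were higher in the members of both libraries. They were taken as markers with earlier results of these data known, so this is no independent check of the label. The label is kept with the limit on central memory cells given above. Cd4 was at 247 CPM in control members and 162 CPM in IR members, while Cd8a was at 0.416 CPM and 0. Cd8b1, the other CD8 marker, was at 9.16 CPM in control members and 3.04 CPM in other barcodes, and at 11.3 and 4.46 CPM in IR, where it was called higher in members.

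Igfbp4 and Dapl1, which encodes a protein named for its likeness to death-associated protein, had the largest ratios of members to other barcodes in control among genes of at least 50 CPM. The 250 bases before their start sites are printed to show the letters upstream of the genes that marked these cells most. They are from RefSeq, build GRCm38.p6, both on the plus strand, at chr11:99040994-99041243 for Igfbp4 and chr2:59484403-59484652 for Dapl1. Capitals mark CTTTGA, a core motif of TCF and LEF factors, GTAAACA, a motif of FOXO factors, or CCACCC, a motif of KLF factors, searched on both strands.
Igfbp4: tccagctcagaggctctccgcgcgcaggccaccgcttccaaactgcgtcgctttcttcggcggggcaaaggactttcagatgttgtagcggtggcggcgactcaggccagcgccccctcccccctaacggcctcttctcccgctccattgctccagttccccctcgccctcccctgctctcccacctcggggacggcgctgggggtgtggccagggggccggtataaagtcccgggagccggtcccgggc
Dapl1: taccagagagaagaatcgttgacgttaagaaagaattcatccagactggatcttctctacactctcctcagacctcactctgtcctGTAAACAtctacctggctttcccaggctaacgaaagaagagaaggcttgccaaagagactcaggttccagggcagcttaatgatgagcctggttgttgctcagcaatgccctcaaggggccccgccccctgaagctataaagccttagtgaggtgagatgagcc
The Dapl1 window held 1 GTAAACA and no other motif, and the Igfbp4 window held none of the 3. Across 32851 promoter windows of this length, 13.8% held CTTTGA, 3.17% held GTAAACA and 28.1% held CCACCC. Of the 29 genes in the naive factor and naive surface lists, 26 matched with 40 windows, of which 12.5% held CTTTGA, 5.00% held GTAAACA and 47.5% held CCACCC. Of the effector memory and residency lists, 21 of 32 genes matched with 24 windows, of which 12.5%, 4.17% and 41.7% did. A match is a string of letters and not a bound site.

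Igfbp4 (chr11:99041244-99054392, plus strand, GRCm38, GENCODE M21) lies 89804 bp from Ccr7 (chr11:99144196-99155077, minus strand). Of the genes nearby, Smarce1, which encodes a chromatin remodelling subunit 53970 bp from Ccr7, had log2 ratios of members to other barcodes of 0.05 in control and -0.15 in IR. Rara, the gene of retinoic acid receptor alpha, had log2 ratios of -0.07 and -0.30. Neither was called in either library, while Top2a, a topoisomerase of cycling cells that lies beyond Igfbp4, was between the limits in control (-0.30) and lower in IR (-1.22).

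To compare the share of members at 1 depth, each barcode was thinned to 1000 UMIs. Members then made up 2.89% of Cd3 barcodes in control CD4 (95% Clopper-Pearson interval 2.56 to 3.25, 271 of 9375) and 15.2% in IR CD4 (14.5 to 15.9, 1391 of 9159). The share was higher in the IR library, and it was also higher there without thinning, at 20.2% against 7.55%. Thinning left out 143 shallow barcodes in control and 1142 in IR of the CD4 libraries. Of the members by the full rule, 33.2% in control and 76.7% in IR kept a Ccr7 UMI at this depth. The thinned share therefore depends on the Ccr7 level per barcode too and is not a count of cells alone.

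The CD8 libraries had the same order, with 6.42% in control and 31.4% in IR after thinning, which left out 1086 of 9685 and 3417 of 6413 barcodes. In DN T cells the thinned share was 0.0864% (8 of 9264) in control and 0.621% (14 of 2256) in IR. DN barcodes that were no members had a median of 8546 and 1518 UMIs, and 45 and 1695 DN barcodes were left out. The CD4 shares lay above these DN values in both conditions. The DN cells were separate libraries, with 72 and 44 Ccr7 UMIs in their Cd3 barcodes. Their shares therefore cannot measure free Ccr7 RNA in the CD4 libraries, which was not tested. A share of a sorted library cannot separate more cells of this kind from fewer cells of the others.

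**Figure D1:**
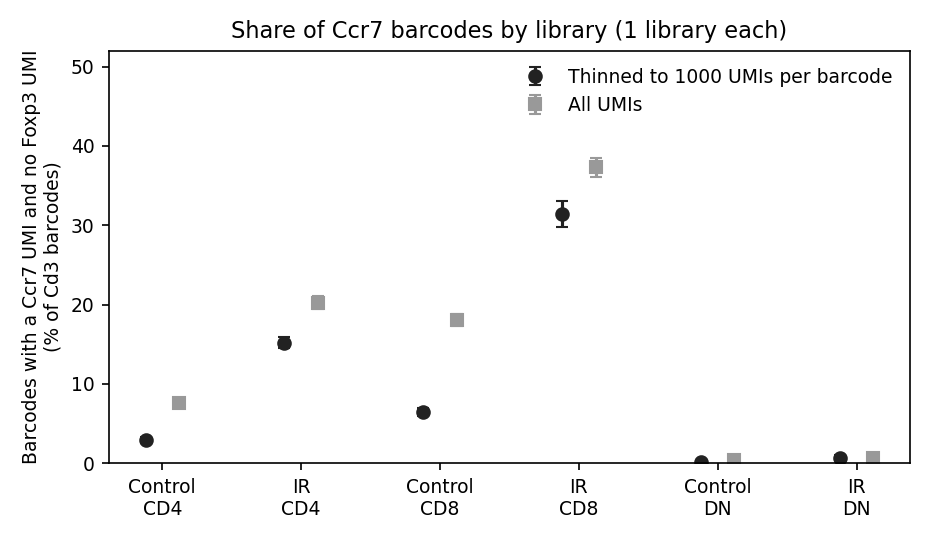
Share of Cd3 barcodes (%, vertical axis) with a Ccr7 UMI and no Foxp3 UMI in each of the 6 libraries, thinned to 1000 UMIs (black circles) or with all UMIs (grey squares), with 95% Clopper-Pearson intervals as bars. After thinning, IR CD4 lies at 15.2% and control CD4 at 2.89%, and both DN libraries lie below 1%.

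Members were graded by their Ccr7 count. In control, 309 members held 1 Ccr7 UMI, 162 held 2 and 248 held 3 or more, with a highest count of 17. In IR, 1105, 498 and 482 members did so, with a highest count of 15. Most members of the IR library therefore rested on 1 Ccr7 UMI (53.0%), as did 43.0% of those in control.

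Igfbp4 followed this grade in control. It was at 204 CPM in members with 1 Ccr7 UMI, just inside the threshold, at 337 CPM with 2 and at 444 CPM with 3 or more, and at 6.95 CPM just outside it, in barcodes with neither a Ccr7 nor a Foxp3 UMI. In IR the classes lay closer together, at 632, 740 and 764 CPM inside and 99.6 CPM outside. Cxcr6, which encodes a chemokine receptor of tissue T cells, ran the other way in control, at 264, 138 and 111 CPM inside and 862 CPM outside.

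Barcodes left out for a Foxp3 UMI, the transcript of the regulatory T cell factor, numbered 37 in control and 45 in IR. Ikzf2, which encodes the regulatory T cell factor Helios, was at 2268 CPM in them in control and 977 CPM in IR. In members with 1 Ccr7 UMI it was at 204 and 80.7 CPM, so the classes on either side of the Foxp3 limit differed in this gene too.

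Within control CD4, 318 genes (3.54% of 8992 tested) were called higher in members and 435 (4.84%) lower, where a call means at least 10 CPM in the higher set and a 2-fold ratio. In IR CD4, 220 genes (2.53% of 8690) were higher and 514 (5.91%) lower. The median log2 ratio of all genes tested was -0.03 in control and -0.04 in IR. Of the genes called higher, 140 were shared, which is 44% of the control and 63.6% of the IR list, and of those called lower 293 were shared, which is 67.4% and 57.0%. No gene was called in opposite directions.

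Genes that carry naive T cells between blood and lymph nodes were among those called higher. S1pr1, the egress receptor, was at 272 CPM against 45.1 CPM in control and 595 CPM against 190 CPM in IR. Members were higher in both libraries, by log2 ratios of 2.59 in control and 1.65 in IR.

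Of 14 homing and egress genes 13 were tested, and in each library 4 were higher and 1 lower, against 3.54% and 4.84% of all genes in control and 2.53% and 5.91% in IR. The same 4 genes were higher in both, and besides S1pr1 they included Itga6, an integrin chain that binds laminin, with log2 ratios of 2.05 and 1.25, and Rasgrp2, an activator of RAP1 in integrin signalling, with 2.39 and 1.35. Itgal, the alpha chain of the integrin LFA-1, was lower, at 206 against 474 CPM in control and 115 against 231 CPM in IR. The list median was close to 0 in control (0.06) and IR (0.10), since the other members of the list lay between the limits.

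Transcription factors of the naive state formed the next group. In control 8 of 13 were higher, against 3.54% of all genes, and none lower (median log2 ratio 1.70). In IR 7 of 13 were higher, against 2.53%, and none lower (1.13). Lef1 was at 1732 CPM in control members and 330 CPM in other barcodes, and at 933 and 295 CPM in IR. Klf2, which drives S1pr1, was at 1577 and 298 CPM in control and 3920 and 1468 CPM in IR. Tcf7 was at 688 and 160 CPM in control and 761 and 257 CPM in IR.

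At 1000 UMIs Lef1 was found in 76.8% of control members and 24.3% of other barcodes, and in 58.0% and 22.6% in IR, so it was not limited to members. Bach2, a repressor of effector genes, had log2 ratios of 2.10 in control and 1.32 in IR. Id3, an inhibitor of E proteins, had 2.93 and 1.81. Foxo1, with 0.69 and 0.55, did not reach the limit in either library.

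Of 16 further naive surface and cytoplasmic genes, 12 were higher in control (median 2.89) and 11 in IR (1.85). The shares over all genes were 3.54% and 2.53%, and none of the 16 was lower. Dapl1 was at 266 CPM (251 to 281) in control members and 9.55 CPM in other barcodes, and at 315 CPM (297 to 334) and 55.1 CPM in IR. Actn1, which encodes an actin crosslinker, was at 297 and 14.4 CPM in control and 209 and 45.5 CPM in IR. Nsg2, Tdrp and Atp1b1, the last of which encodes a subunit of the sodium pump, had log2 ratios of 3.71, 3.80 and 3.55 in control and 2.11, 2.29 and 2.40 in IR.

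Ratios of Igfbp4, Dapl1, St8sia6, Actn1, Lef1, Klf2 and Tcf7 were smaller in IR than in control, while that of Btg1, of the naive factor list, was 0.29 in control and 0.31 in IR. When the rule was applied after thinning, the control log2 ratios were 4.24 for Igfbp4, 3.96 for Dapl1 and 3.71 for St8sia6. The levels of the other Cd3 barcodes were higher in IR for Igfbp4, Dapl1 and Actn1. At 1000 UMIs, Igfbp4 was found in 24.8% of control members and 0.716% of other control barcodes, and in 39.4% of IR members and 6.13% of other IR barcodes, against 0.0216% and 0.177% of control and IR DN barcodes. How many other Cd3 barcodes of the shallower IR library would hold a Ccr7 UMI at a greater depth was not tested.

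Cytokine receptors divided. Of 10, 4 were higher and 1 lower in control, against 3.54% and 4.84% of all genes. In IR 3 were higher and 1 lower, against 2.53% and 5.91%. Il7r, the receptor for the survival cytokine IL-7, was at 856 CPM in control members and 198 CPM in other barcodes, but at 1256 and 743 CPM in IR, which is a log2 ratio of 0.76 and under the limit. Il6ra and Il6st, the chains of the IL-6 receptor, were higher in both, with log2 ratios of 2.31 and 1.63 in control and 1.27 and 1.19 in IR.

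The chains of the interferon gamma receptor went opposite ways. Ifngr2, the signalling chain, was at 53.5 CPM in control members and 4.27 CPM in other barcodes, and at 206 and 37.9 CPM in IR. Ifngr1, the chain that binds the ligand, was at 370 and 910 CPM in control and 457 and 992 CPM in IR. Ifngr2 was thus called higher and Ifngr1 lower in members of both libraries.

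**Figure D2:**
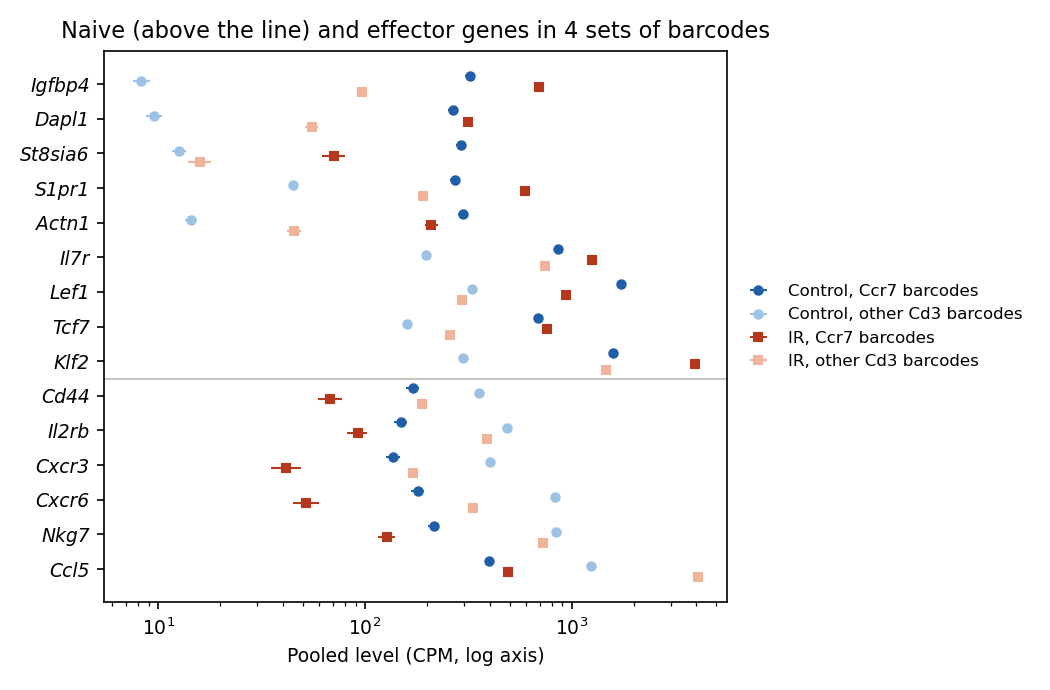
Pooled level (CPM, log axis) of 15 genes in members (dark) and other Cd3 barcodes (light) of the control (circles) and IR (squares) CD4 library, with 95% Poisson intervals. The 9 naive genes above the line lie further right in members, and the 6 effector genes under it lie further left, with Igfbp4 at 321 against 8.27 CPM and Cxcr6 at 179 against 825 CPM in control.

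Effector and memory genes were lower in members. Of 20 such genes, 14 were lower and none higher in control (median log2 ratio -1.58), against 4.84% of all genes lower. In IR 17 were lower and none higher (-1.78), against 5.91%. Ccl5, a chemokine of effector T cells, was at 397 CPM in control members and 1241 CPM in other barcodes, and at 489 and 4056 CPM in IR. Cd44, the adhesion receptor that marks antigen-experienced cells, was at 170 and 357 CPM in control and 67.9 and 189 CPM in IR.

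Receptors that draw effector cells into tissue followed. Ccr2 had log2 ratios of -2.14 in control and -2.83 in IR, and Cxcr3 -1.56 and -2.05. Il2rb, a chain of the IL-2 and IL-15 receptors, had -1.71 and -2.07. Crip1, Anxa2 and S100a10 lay between the limits in both libraries.

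Genes of tissue residency were lower too, with 8 of 11 lower in control (median -1.66) and 7 of 10 in IR (-1.69), and none higher. The shares of all genes called lower were 4.84% and 5.91%. Cxcr6 was at 179 CPM (168 to 192) in control members and 825 CPM in other barcodes, and at 51.9 CPM (44.6 to 60.1) and 333 CPM in IR. Kcnq5, which encodes a potassium channel, was at 410 and 1455 CPM in control and 103 and 448 CPM in IR. Itga1, a collagen-binding integrin chain, was at 56.6 and 266 CPM in control and 9.87 and 58.5 CPM in IR. When the rule was applied after thinning, the control log2 ratio went from -2.20 to -3.62 for Cxcr6 and from -1.83 to -3.40 for Kcnq5. Cd69, an early activation and retention marker, did not reach the limit, with log2 ratios of -0.20 and 0.10.

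Of the factors of helper lineages 3 of 7 were lower in each library and none higher. Of the cytokine genes tested, 5 of 11 were lower in control and 7 of 10 in IR, with none higher. Over all genes, 4.84% were lower in control and 5.91% in IR. Ifng was at 137 and 471 CPM in control and 129 and 767 CPM in IR, and Il4 at 26.2 and 103 CPM and at 15.4 and 110 CPM. Tbx21, the gene of the type 1 helper factor T-bet, was at 87.0 and 312 CPM in control and 16.5 and 108 CPM in IR.

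Zbtb16, the gene of PLZF, a factor of NKT cells, was at 76.6 and 230 CPM in control and 15.7 and 87.3 CPM in IR. Klrb1c, Klrd1 and Klre1, receptors of natural killer and NKT cells, were all lower in members of both libraries. Gzma, a granule protease, was at 9.28 CPM in IR members and 107 CPM in other IR barcodes, a log2 ratio of -3.53, but at 11.0 and 11.4 CPM in control.

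The rule had placed barcodes with a Foxp3 UMI in the other set, so regulatory T cell genes were also compared with barcodes that held neither a Ccr7 nor a Foxp3 UMI. Of 10 such genes besides Foxp3, 3 were lower and none higher in control against all other barcodes (median -0.61), but 1 lower and 1 higher without those with a Foxp3 UMI (median 0.16). In IR 5 were lower and 1 higher, and 4 lower and 1 higher without them. Against all other barcodes, 4.84% of all genes were lower and 3.54% higher in control, and 5.91% and 2.53% in IR. Il2ra, the high-affinity IL-2 receptor chain, was at 18.7 CPM in control members and 44.9 CPM in barcodes with neither UMI, and at 18.3 and 64.0 CPM in IR. Ikzf2 had a log2 ratio of -1.28 in control against all other barcodes and -0.57 without those with a Foxp3 UMI, which is under 2-fold.

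Of 12 immediate early genes 1 was lower in control and 2 in IR, and of 12 heat shock genes none was called in control and 2 were lower in IR, against 4.84% and 5.91% of all genes lower.

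**Figure D3:**
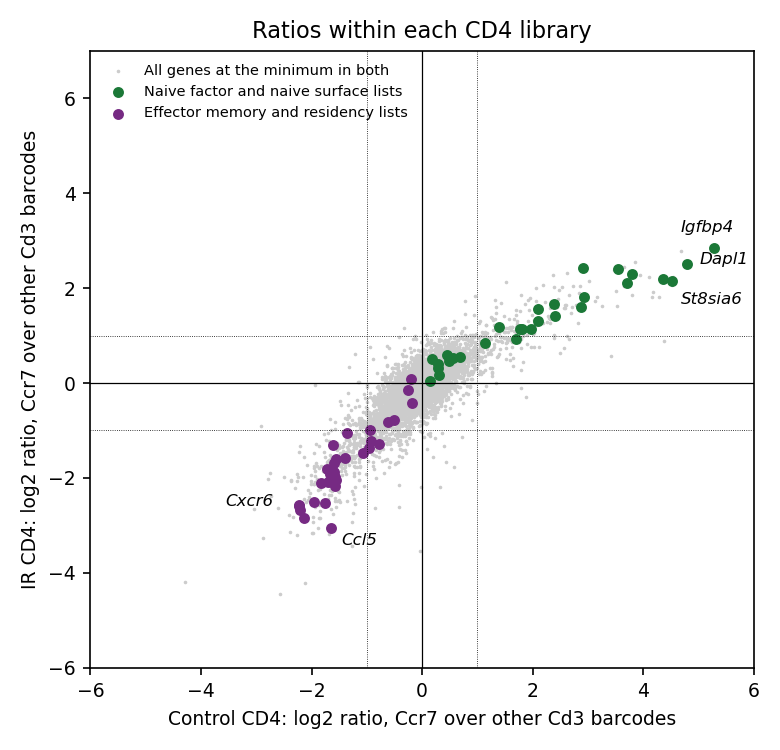
Log2 ratio of members to other Cd3 barcodes in control CD4 (horizontal axis) and IR CD4 (vertical axis) for genes that reached 10 CPM in both, with dotted lines at a 2-fold ratio. Naive genes (green) lie at the upper right, up to 5.28 and 2.84 for Igfbp4, and effector and residency genes (purple) at the lower left.

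Over the 8285 genes tested in both libraries, the ratios had a Pearson r of 0.821 and a Spearman rho of 0.734. This correlation is across genes, which are not independent replicates, and both ratios share the rule that chose the cells. Ribosomal protein genes, left out of the totals elsewhere, were compared with all features in the totals. In control 83 of 85 lay above 0 (median log2 ratio 0.63), and in IR 82 of 84 (0.33). Only 4 were called higher in control and 0 in IR, against 2.39% and 1.44% of all genes on that scale. The median over all genes was then -0.20 in control and -0.29 in IR. These genes took a median of 26.0% of UMIs in control members and 15.1% in other barcodes, and 45.2% and 31.2% in IR.

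Markers of cells other than T cells were summed in the same sets. In control the summed level of the 8 myeloid markers was 11.5 CPM in members and 16.8 CPM in other barcodes, and that of the 6 tubule markers 1.04 and 1.37 CPM. The 6 B cell markers summed to 250 CPM in control members and 178 CPM in other barcodes, most of it Ighm at 229 and 173 CPM, and to 172 and 162 CPM in IR. The 10 dendritic cell markers summed to 81.2 and 106 CPM in control and 119 and 108 CPM in IR. The 5 endothelial markers summed to 385 and 110 CPM, nearly all of it Pecam1 at 385 and 108 CPM, while Cdh5 and Kdr were at 0. Pecam1 encodes CD31, which naive T cells also carry.

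In IR members the 4 haemoglobin genes summed to 995 CPM against 24.6 CPM in other barcodes, and the 8 myeloid markers to 159 against 53.9 CPM. For each of the haemoglobin genes 91.9% to 100% of the UMIs came from 1 barcode, and without barcodes that held 3 or more UMIs of B cell, myeloid or erythroid markers, 21 of them IR members, the log2 ratio of Hbb-bs was -0.15. None of the 4 was then called, and the IR counts were 219 genes higher and 530 lower. Flt3, a receptor of dendritic cell precursors, was called higher in control members, at 11.2 and 0.538 CPM, while the other dendritic cell markers were not. Igkc, an antibody light chain, and Trdc, a constant segment of the γδ T cell receptor, were also called higher in control, at 12.5 and 2.23 CPM and at 13.3 and 2.65 CPM. Tcrg-C1 and Tcrg-C2 of the same γδ list were lower, and the 4 genes of that list summed to 29.8 and 71.7 CPM in control and 13.9 and 55.6 CPM in IR.

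Members were not uniform. A panel of 8 naive genes, among them Igfbp4, St8sia6, Dapl1, Actn1, Nsg2, Tdrp and Atp1b1, was chosen from the lists after their values were seen, and a barcode was graded by how many of them had a UMI. With all UMIs, 85.4% of control members (614 of 719) and 4.66% of other barcodes held at least 2 of them, and 56.2% of IR members (1172 of 2085) and 10.4% of other barcodes did. At 1000 UMIs, the shares were 45.1% and 1.58% in control and 41.2% and 7.08% in IR. The intervals of the control members (41.4 to 48.8) and the IR members (39.0 to 43.5) overlapped at this depth.

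The remaining 105 control members held fewer than 2 panel genes and had more transcripts of effector genes. Their Cxcr6 was at 411 CPM against 131 CPM in the 614 others, their Zbtb16 at 297 against 30.7 CPM and their Ifng at 436 against 75.0 CPM. Lef1 was at 358 CPM in them and 2019 CPM in the 614. Over 8 effector genes, the median was 10 UMIs in these 105 barcodes, 1 in the 614 and 22 in the other Cd3 barcodes.

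In IR the 913 members with fewer than 2 panel genes differed less from the rest, with Lef1 at 724 against 1080 CPM and Klf2 at 3707 against 4069 CPM. This split used all UMIs, at a median of 2801 UMIs in IR and 8277 in control members. How far the smaller difference in IR goes with its lower depth was not tested. Cxcr6 was at 78.6 against 33.1 CPM. Members with at least 2 panel genes had log2 ratios to those with fewer of -1.25 for Cxcr6, -1.13 for Ccl5 and -1.67 for Cxcr3, each past 2-fold.

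**Figure D4:**
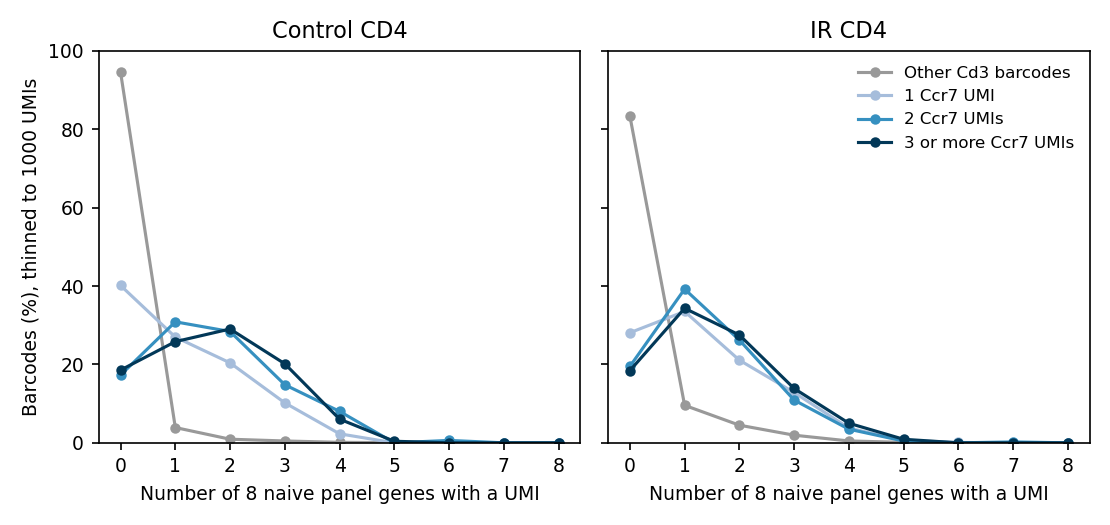
Share of barcodes (%, vertical axis) by the number of 8 naive panel genes with a UMI after thinning to 1000 UMIs (horizontal axis), in control CD4 (left) and IR CD4 (right). Lines are other Cd3 barcodes (grey) and members with 1, 2 or 3 or more Ccr7 UMIs (light to dark blue). Other barcodes peak at no panel gene in both libraries, and among members those with 1 Ccr7 UMI held no panel gene most often, in 40.1% of control and 28.1% of IR barcodes.

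T cell receptor segments were read where a barcode held a single segment of a family. Trav11, the segment of the invariant receptor of NKT cells, was found in 2 of 151 control members with 1 Trav segment (1.32%, 95% Clopper-Pearson interval 0.161 to 4.70) and 162 of 1749 other barcodes (9.26%, 7.94 to 10.7). In IR it was found in 0 of 277 members, which allows a share of up to 1.08% by the limit of 3 counts and 1.32% by the Clopper-Pearson interval, and 31 of 919 other barcodes (3.37%). Trav segments have near-identical copies among which reads can be split, so these shares are uncertain.

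Among Trbv segments, Trbv13-2 was used by 8.60% of control members (5.00 to 13.6, 16 of 186) and 15.6% of other barcodes (14.1 to 17.3, 326 of 2084). In IR it was used by 5.94% and 6.61%, with overlapping intervals. The effective number of Trbv segments, the number of equally used segments that would give the same diversity, corrected for the number of barcodes, was 13.99 in control members and 11.5 in other barcodes, and 13.5 and 11.3 in IR. For Trav segments it was 48.0 and 34.7 in control and 37.1 and 34.3 in IR. Without the correction, which matters more for the smaller sets, the Trav values in IR were 32.8 and 33.1.

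Ccr7-positive CD8 members, chosen by the same rule in the CD8 libraries (1746 in control and 2392 in IR), showed which of these genes were shared. Dapl1, Nsg2, Actn1, Lef1 and Il7r differed by less than 2-fold between CD4 and CD8 members in both conditions. St8sia6 differed, at 291 CPM in CD4 and 4.97 CPM in CD8 members in control and 70.8 and 1.47 CPM in IR. Pdlim4, which encodes a cytoskeletal adaptor, was at 49.6 and 1.28 CPM in control and 85.3 and 0.368 CPM in IR. Igfbp4 was higher in CD4 members as well, by log2 ratios of 1.41 and 1.52.

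Levels of members were then set side by side between IR and control. Of 8950 genes tested, 620 (6.93%) were higher in IR members and 1472 (16.4%) lower, at a median log2 ratio of -0.29 over all genes tested. Among other Cd3 barcodes 640 of 9070 (7.06%) were higher and 1274 (14%) lower. The split depended on the scaling, with 868 higher and 964 lower under TMM, which moved every log2 ratio by 0.19, 286 and 2716 with ribosomal, mitochondrial and Malat1 features kept, and 730 and 555 after centring within bins of intronic length. Direction is therefore given only for genes and lists whose sign held under these scalings, unless the exception is named.

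Of 16 naive surface genes, 1 was higher and 1 lower in IR members, against 6.93% and 16.4% of all genes, and their log2 ratios ran from -2.04 to 1.11 with a median of -0.04 whose sign changed with the scaling. Dapl1 had a log2 ratio of 0.25, which was negative with the removed features kept and in members chosen after thinning. Igfbp4 was higher in IR, at 691 against 321 CPM (log2 ratio 1.11, 1.01 to 1.20), but lay under 2-fold with the removed features kept (0.72), without the 5% of barcodes with most UMIs (0.996), with at least 2 Ccr7 UMIs (0.90) and in members chosen after thinning (0.70).

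St8sia6 was lower, at 70.8 CPM in IR and 291 CPM in control members. Its log2 ratio was -2.04 (-2.24 to -1.84) and lay between -2.43 and -1.15 over all alternatives. In other Cd3 barcodes its log2 ratio was 0.33, which was not called. St8sia6 has 135380 bp of introns, and the centring within bins of intronic length gave the value nearest 0.

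In the other Cd3 barcodes 7 of 15 naive surface genes were higher in IR and none lower, against 7.06% and 14% of all genes. Igfbp4 had a log2 ratio of 3.54 there against 1.11 in members, Dapl1 2.53 against 0.25 and Il7r 1.91 against 0.55. These ratios share their libraries with those of members and were not compared by a test. Ccl5 was higher in IR in other barcodes, with a log2 ratio of 1.71, and not called in members, with 0.30.

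Immediate early genes were higher in IR members, with 7 of 12 higher and none lower, against 6.93% and 16.4% of all genes. Their median log2 ratio was 1.22. Junb, an AP-1 subunit, was at 8695 CPM in IR and 2378 CPM in control members, and Zfp36, which promotes the decay of cytokine transcripts, at 1000 and 269 CPM. Nr4a1, a receptor gene induced by T cell receptor signals, was at 374 and 104 CPM. Fos and Jun were not among them, with log2 ratios of -0.15, which was positive under TMM, and -0.78.

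With the removed features kept, 4 of the 12 were higher and 2 lower, and after centring on intronic length 6 were higher and 2 lower. In other Cd3 barcodes 6 of the 12 were higher (median 1.11). Myeloid markers were also higher in IR members, at a summed 159 against 11.5 CPM in control members, and all 4 tested were called (C1qa, C1qb, S100a8 and S100a9). In other barcodes C1qa and C1qb were called. Without barcodes that held 3 or more UMIs of other cell types, no myeloid marker reached the minimum in members, and the immediate early list had 7 of 12 genes higher and a median of 1.22. Btg1, an antiproliferative gene of quiescent T cells, was at 7267 CPM in IR and 1802 CPM in control members. Klf2 and S1pr1 had log2 ratios of 1.31 and 1.13, which dropped to 0.91 and 0.73 after centring on intronic length. Neither was called with the removed features kept, and S1pr1 was not called in members chosen after thinning. Cxcr4, a chemokine receptor of bone marrow and inflamed tissue, was at 194 and 36.9 CPM.

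Heat shock genes were lower in IR members, with 6 of 12 lower and none higher, against 16.4% and 6.93% of all genes. Their median was -1.03, the same as in other barcodes. Hspa1a, which encodes the inducible chaperone HSP70, was at 63.3 CPM in IR and 1387 CPM in control members. Hspa1b, its close copy, was at 123 and 2109 CPM, and reads of the pair may be split between them. Both were lower in IR members than in other IR barcodes as well, at 159 and 254 CPM there, while in control the members and the other barcodes, at 1059 and 1649 CPM, differed by less than 2-fold.

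Of 20 effector genes 6 were lower and 1 higher in IR members, and of 11 residency genes 4 were lower and 1 higher, against 16.4% of all genes lower. The residency median was -0.04, which was positive under TMM (0.14), and in other Cd3 barcodes the same 4 genes were lower and the same 1 higher, while 3 of the 20 effector genes were lower and 1 higher. Tbx21 had a log2 ratio of -2.40, Itga1 -2.52, Cxcr6 -1.79 and Cxcr3 -1.72. In members chosen after thinning Tbx21 had -1.22 and Cxcr6 -1.12, and after centring on intronic length Itga1 had -1.63. Kcnq5 had -1.99 and Cd44 -1.33, which became -0.83 and -0.54 after centring on intronic length and -1.32 and -1.99 in members chosen after thinning. Cell cycle genes were lower in 7 of 9, against 16.4% of all genes. Yet Mki67, at 3.19 and 55.8 CPM, had 27.6% of its control UMIs in 1 barcode. In members chosen after thinning the list median was 0.37, with 1 gene higher and 2 lower of 5.

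Some of the largest differences were shared with other Cd3 barcodes. Cmss1, a gene with 302868 bp of introns, was at 327 CPM in IR and 7331 CPM in control members, a log2 ratio of -4.49 against -4.45 in other barcodes, and of -3.33 after centring on intronic length. Gm50306, a predicted gene, was at 207 and 2.50 CPM, with 6.37 against 6.55, and 5.69 in members chosen after thinning. A predicted gene, 4930558K02Rik, was at 85.0 and 0.625 CPM, the latter from 3 UMIs. Its log2 ratio of 7.09 in members stood against a smaller 5.10 in other barcodes, and was 2.98 in members chosen after thinning. Since the libraries also differed in Cell Ranger version, the part of condition in these values cannot be told apart from that of processing.

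**Figure D5:**
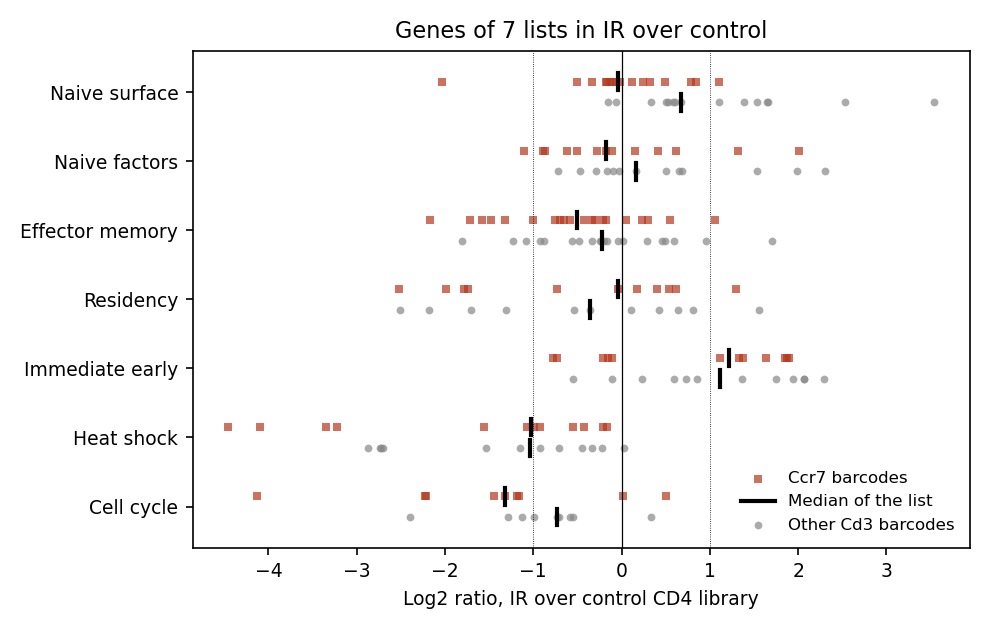
Log2 ratio of IR to control CD4 (horizontal axis) for each tested gene of 7 lists in members (red squares) and other Cd3 barcodes (grey circles), with the list median as a black bar and dotted lines at a 2-fold ratio. Naive surface genes centre at -0.04 in members and 0.68 in other barcodes, and heat shock genes at -1.03 in both.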

How the data were processed

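The deposited matrices held raw UMI counts for each gene in each barcode. The authors had made these counts from 10x Genomics 3' v3.1 libraries with Cell Ranger at default settings on mm10 (6.0.1 in the submitters' processing notes, 5.0.1 in the control file headers), keeping the barcodes that Cell Ranger called as cells. Intron and strand settings were not given in the sources used here.

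All 6 libraries were filtered by the rule above, and no doublet caller was run. Of 32285 features, 104 (13 mitochondrial, 90 ribosomal protein and Malat1) were left out of totals. Counts were summed over members and over other Cd3 barcodes and scaled to CPM. A gene was called at 10 CPM or more in the higher set and a 2-fold ratio, with 0 counts set to a floor of 3 counts (0.625 CPM in control members and 0.870 CPM in IR members). Ccr7 and Foxp3 were not called, since the rule uses them. With 1 library per group no p-value was computed. Intervals are exact Poisson intervals for levels, exact conditional intervals for ratios and Clopper-Pearson intervals for shares, all at 95%. Thinning drew 1000 UMIs per barcode from the retained features without replacement. Genes for the text were drawn from the 4 largest ratios of each of 23 lists, markers of those lists and the 8 largest ratios per direction at 50 CPM or more, not all of which are named. The genes beside Ccr7 and those of the closing section chosen after their values were seen fall outside this rule. Features were matched to GENCODE M21 (GRCm38) by Ensembl identifier. Alternative settings comprised keeping the removed features, scaling by TMM with edgeR 4.0.16 under R 4.3.3, no minimum or 50 CPM, the top 5% of barcodes by UMIs removed, a mitochondrial limit of 10%, a mean over cells, thinning, at least 2 Ccr7 UMIs, shared barcodes left out, other barcodes limited to those with no Ccr7 or Foxp3 UMI, and centring within 20 bins of intronic length. Leaving out barcodes with 3 or more UMIs of other cell types, applying the rule after thinning and limiting members to those with at least 2 panel genes were added after the data were seen. Some genes that entered the lists, the panel and their counts are not reported here by name. The members and lists were chosen with earlier results of these data known. Scripts ran in Python 3.11.15 with numpy 2.4.6, pandas 2.3.3 and scipy 1.17.1. On simulated Poisson counts around pooled levels, 200 of 200 genes changed 4-fold were recovered in each comparison. In control CD4, IR CD4 and IR over control, 0, 1 and 5 unchanged genes were called among 8779, 8545 and 8688 tested. The simulation had no variation between barcodes or libraries. It therefore checks the computation of calls and cannot show how many calls in the data are false.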

Additional observations from a re-analysis of the deposited data

Results flagged for a closer look

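Ccr7 UMIs were also found in barcodes that the members' rule left out for lack of a Cd3 UMI. In the IR CD4 library 53 of 452 such barcodes held a Ccr7 UMI (11.7%, 95% Clopper-Pearson interval 8.91 to 15.1), against 14 of 251 (5.58%, 3.08 to 9.18) in control CD4. In the IR CD8 library 161 of 414 did (38.9%, 34.2 to 43.8), against 10 of 166 (6.02%, 2.93 to 10.8) in control CD8. In DN libraries 1 of 423 such barcodes in IR and 1 of 78 in control did. The median depth of these barcodes was 1590 UMIs in IR CD4 and 1560 in control CD4, and 1498.5 and 1072 in the CD8 libraries. Whether they were T cells with no counted Cd3 transcript was not tested.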

How the results depend on the processing

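No paired analysis was possible because each group was 1 library. The share of members in control and IR CD4 was 7.55% and 20.2% without thinning, 1.46% and 10.1% at 500 UMIs, 2.19% and 10.4% when 1000 UMIs were drawn over all features, and 0.576% and 5.72% with at least 2 Ccr7 UMIs. It was higher in IR in each case. Within control CD4, 202 genes were higher with the removed features kept, 3526 higher and 1344 lower with no minimum CPM, 146 and 210 at a minimum of 50 CPM, and 744 and 1206 when the rule was applied to thinned barcodes. Thinning the members of the full rule gave 817 lower. Within IR CD4, 108 were higher with the removed features kept, 1534 higher and 1760 lower with no minimum, and 106 and 192 at 50 CPM. Between IR and control members, TMM gave 964 lower, the removed features kept 286 higher and 2716 lower, no minimum 1697 and 2652, and 50 CPM 336 and 729, while the rule on thinned barcodes gave 1134 higher and centring on intronic length 555 lower. The settings of the minimum changed the number of genes tested. With no minimum the share called higher changed too, from 3.54% to 19.6% in control CD4 and from 2.53% to 9.35% in IR CD4. The cause was not tested for any of these settings.

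Among the named genes called and the list medians of at least 2-fold, directions turned in 4 cases where the minimum was still reached, for which the cause was not tested. Under the minimum, Fgl2 between IR and control members also went from -1.74 to 0.92 when the rule was applied to thinned barcodes, and Hbb-bs within IR from 5.94 to -0.15 without barcodes of other cell types. The control list median of gamma delta genes went from -1.87 to 0.0168 with no minimum, and Trf from -2.88 to 0.10 when the rule was applied to thinned barcodes. Between IR and control members, the list median of cell cycle genes went from -1.32 to 0.37 under that rule and Auts2 from -1.11 to 0.0481 after centring on intronic length. Of 52 list medians, 17 changed sign under at least 1 alternative, 45 times in all. Of these, the medians under 2-fold lay within 0.61 of 0 on the log2 scale. Depth limits what IR barcodes can show, as a gene at 0.870 CPM in IR members is 3 UMIs.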

Other observations

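Several genes differed between IR and control by more in members than in other Cd3 barcodes, and they were chosen after their values were seen. Socs3 and Socs1, which encode inhibitors of cytokine signalling, had log2 ratios of 3.47 and 3.22 in members and 2.53 and 2.00 in other barcodes. Gadd45g, a stress-response gene, had 2.93 and 1.53, and Map3k8, a kinase of the MAP kinase pathway, 2.84 and 1.66. Batf, an AP-1 factor, had 1.98 and 0.93, and Irf1, a factor induced by interferon, 1.28 and 0.44. The interferon list as a whole had 1 of 13 genes higher in IR members, close to the 6.93% of all genes. Its median was 0.06, which was negative with the removed features kept (-0.26). With 1 library per group these differences have no replicate check, and their cause was not tested.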
